A study of Mus musculus with 85 samples.

Results

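The MHC class I antigen presentation pathway was followed through 9 genes: B2m, H2-K1, H2-D1, Tap1, Tap2, Tapbp, Psmb8, Psmb9 and Psmb10. The genes were chosen by name, as the chain from peptide production to the presenting molecule, out of 18193 genes named by a single symbol on the array. All 9 were among the 10694 genes counted as measured, that is, detected in at least 3 cells. They are covered by 26 probe sets that name 1 of them alone, and 3 further probe sets name H2-K1 or H2-D1 together with another gene.

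The 85 mouse cells had been sorted and amplified 1 by 1, and each was read on a separate Affymetrix whole-genome array. Of the 5 populations, 2 are endothelial and came from the caudal part of eR1-GFP embryos on embryonic day 10.5 (E10.5), in which a Runx1 enhancer drives GFP. Their gate was CD31+Ter119-CD45-CD41-; the 7 cells without GFP are endothelial cells (EC) and the 7 with GFP are hemogenic endothelial cells (HEC), which give rise to blood. The other 3 are wild-type blood populations. Intra-aortic hematopoietic clusters, gated as c-Kit+CD31+CD45+SSEA1-, gave 28 cells from the caudal part at E10.5 (E10.5 clusters) and 16 from the aorta-gonad-mesonephros at E12.5 (E12.5 clusters). Fetal liver at E14.5 gave hematopoietic stem cells (HSC), gated as Mac-1+, Lin-, Sca-1+, c-Kit+, CD150+ and CD48-. HSC arrays 20 and 21 were nearly identical (r = 0.991; the next pair reached 0.859) and were averaged, leaving 26 HSC and 84 cells. Endothelial and blood populations thus differ in genotype as well as in sort, and the labels name no strain.

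MHC class I molecules are a heavy chain, encoded in the mouse by H2-K1, H2-D1 and relatives, held by the invariant light chain beta-2 microglobulin, the product of B2m. They carry short peptides from the cell's own proteins to its surface, where cytotoxic T cells inspect them and natural killer cells register their absence. The peptides are cut by the proteasome, pumped into the endoplasmic reticulum by the transporter of Tap1 and Tap2, and loaded with the help of tapasin, the product of Tapbp. Psmb8, Psmb9 and Psmb10 encode the catalytic subunits of the immunoproteasome, which take the places of the standard subunits encoded by Psmb5, Psmb6 and Psmb7. In adult tissues the whole set is known for its response to interferon, and blood cells carry more of it than most other cells.

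The deposited values are on a log2 scale, and a gene is called detected in a cell where its value is over 5, taken as background. Since the labels tie no cell to an animal, litter or culture, a population is 1 sample here: no test was made, and SDs describe the spread over cells. A difference is the difference of mean log2 values, called higher or lower from 1 log2 unit (2-fold on that scale) up. Levels are compared only between cells for the same probe set, since probe sets of different genes have no common scale.

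The sort was checked against marker lists. All 7 HEC had 9 of 9 endothelial genes above background and at most 1 of 7 blood genes, and all 28 E10.5 and 16 E12.5 cluster cells had at least 4 blood genes. At least 3 blood genes were seen in 24 HSC, and at least 3 endothelial genes in 14 HSC and 13 cells of the E10.5 clusters. In all, 6 cells stood apart from their label: EC cell 3 had 3 of 5 germ-cell genes and 1 endothelial gene, E12.5 cells 3, 6 and 10 had 8 of 8 macrophage genes, and HSC cells 5 and 7 had at least 8 endothelial, 3 of 4 sinusoidal or lymphatic endothelial and no blood genes. Dendritic and lymphoid markers numbered at most 2 of 5 in any cell. The number of probe sets above background was lowest in EC (mean 5905, SD over cells 1447) and highest in the E10.5 clusters (mean 9943, SD 897); the other means were 7712 (HEC), 7820 (E12.5 clusters) and 6552 (HSC).

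Upstream stretches of the 3 genes at the surface end of the pathway are shown to set the light chain beside the heavy chains, which resemble each other. RefSeq promoter windows (250 bases before to 50 after a start, build GRCm38.p6) were found for 8 of the 9 genes; Tap2 was not matched. Capitals mark matches on either strand to the kappaB consensus, to 2 interferon-response motifs (TTTC and TTTC, or TTTC and TTC, with 2 bases of any kind between), to TGACG (the half-site of a cyclic AMP response element) and to CCAAT, which reads ATTGG on the other strand. The stretches are B2m at chr2:122147543-122147643 (plus strand), H2-K1 at chr17:34000354-34000463 (minus strand) and H2-D1 at chr17:35262918-35263027 (plus strand), each written 5′ to 3′ in the direction of its gene and lying upstream of the start.
B2m: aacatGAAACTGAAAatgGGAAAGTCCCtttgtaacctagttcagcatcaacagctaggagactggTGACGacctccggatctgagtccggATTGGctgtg
H2-K1: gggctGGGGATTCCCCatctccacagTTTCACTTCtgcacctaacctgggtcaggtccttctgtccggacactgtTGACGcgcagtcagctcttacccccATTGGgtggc
H2-D1: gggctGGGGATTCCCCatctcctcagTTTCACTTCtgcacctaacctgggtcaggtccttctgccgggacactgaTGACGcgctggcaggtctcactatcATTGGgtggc
H2-K1 and H2-D1 have 2 overlapping kappaB matches each, which appear as 1 run of capitals. The kappaB consensus was in the windows of B2m, H2-K1 and H2-D1 and in 8.46% of all 32851 windows. The longer interferon-response motif was in that of B2m (3.44% of windows) and the shorter one in those of H2-K1 and H2-D1 (7.52%). TGACG was found in 5 of the 8 members and in 20.8% of windows, CCAAT in 6 members and in 37.4%. In all 3 stretches TGACG is followed, after exactly 20 bases, by ATTGG; this arrangement, whose spacing was read off these sequences, was in 31 windows (0.0944%) of 27 genes, among them H2-M3 of the class I-like genes examined. The H2-K1 and H2-D1 windows had the same base at 176 of 240 aligned positions (73.3%), and each matched the B2m window at 29.4% and 30.5%. These matches are letters in a window and were not tied to any measurement of binding.

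B2m was the member most widely held. Its values in EC ran from 2.32 through a median of 11.33 to 13.37, in HEC from 12.59 through 12.70 to 13.79, and in E10.5 clusters from 12.35 through 13.67 to 14.78. In E12.5 clusters they ran from 11.60 through 14.30 to 14.98, and in HSC from 11.91 through 13.60 to 14.71. B2m was detected in 5 of 7 EC and in all 77 cells of the other 4 populations, and only EC contained cells without it. Those cells were EC cell 3, with the germ-cell genes, at 2.32 and EC cell 4 at 2.72. The mean was 4.18 log2 units higher in HEC than in EC, which is less than the SD of 4.60 over EC, and without the 6 cells that stood apart it was 3.08 higher. From HEC on, no step exceeded 1 log2 unit: B2m differed by 0.42 between E10.5 clusters and HEC, 0.73 between E12.5 and E10.5 clusters, and -0.71 between HSC and E12.5 clusters. The second B2m probe set gave 4.02 for HEC minus EC and followed the first over the 84 cells (r = 0.99).

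H2-D1, a classical heavy chain, went with B2m. By probe set 1425545_x_at its values in EC ran from 2.54 through a median of 7.43 to 12.95, and 4 of 7 cells were above background. In HEC they ran from 2.45 through 11.79 to 13.45, with 6 of 7 cells above background. E10.5 clusters spanned 9.06 to 13.66 with a median of 11.63, E12.5 clusters 7.57 to 14.60 with a median of 12.57, and HSC 7.99 to 14.13 with a median of 11.78. Every one of the 70 cells of the 3 blood populations was above background. These include HSC cells 5 and 7, with endothelial and no blood genes, at 11.72 and 12.02. The mean was 3.58 higher in HEC than in EC, and the other steps were 0.87, 0.20 and -0.35. HEC cell 6 was the exception among HEC: it held B2m at 12.70 but H2-D1 at 2.45. Without that cell the E10.5 cluster minus HEC difference turned to -0.49 for H2-D1 and from 0.83 to -0.35 for H2-K1 1451931_x_at, and without HEC cell 1 these were 1.34 and 1.29. Under quantile normalization H2-D1 was 2.28 and H2-K1 1.15 higher in HEC than in EC. B2m together with H2-D1 or H2-K1 was detected in 4 EC, 6 HEC and every cluster cell and HSC.

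The probe sets ending in _x_at, whose probes may also match related genes, gave different accounts of the heavy chains. All 4 H2-K1 probe sets end in _x_at, as do 7 of the 9 for H2-D1. The H2-K1 probe set with the highest mean, 1451931_x_at, followed H2-D1 1425545_x_at almost cell for cell over the 84 cells (r = 0.99) and was 3.10 higher in HEC than in EC. The H2-K1 probe set 1425336_x_at followed H2-K1 1427746_x_at (r = 0.96) and the shared H2-K1 and H2-D1 probe set 1424948_x_at (r = 0.94), but 1451931_x_at only at r = 0.44. It was detected in 2 of 7 EC and 2 of 7 HEC, and in 26 of 28 cluster cells at E10.5, 16 of 16 at E12.5 and 25 of 26 HSC. By this probe set H2-K1 was 0.35 higher in HEC than in EC, 4.54 higher in E10.5 clusters than in HEC, and 1.60 higher in E12.5 than in E10.5 clusters. The remaining H2-K1 probe set, 1450534_x_at, was detected in 0 of 7 EC, 0 of 7 HEC and 0 of 28 cluster cells at E10.5. It was detected in 6 of 16 cluster cells at E12.5 and 19 of 26 HSC, and was 2.40 higher in HSC than in E10.5 clusters. So the step at which the H2-K1 mean rose most depended on the probe set. It lay between EC and HEC by 1451931_x_at, and between HEC and E10.5 clusters by 1425336_x_at. By 1450534_x_at it lay between E10.5 and E12.5 clusters, at 1.27. By 1451931_x_at H2-K1 was already detected in 4 of 7 EC, against 6 of 7 HEC, and the 3.10 was within the larger SD of 3.58. Which of these sets reads H2-K1 alone was not tested.

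**Figure D1:**
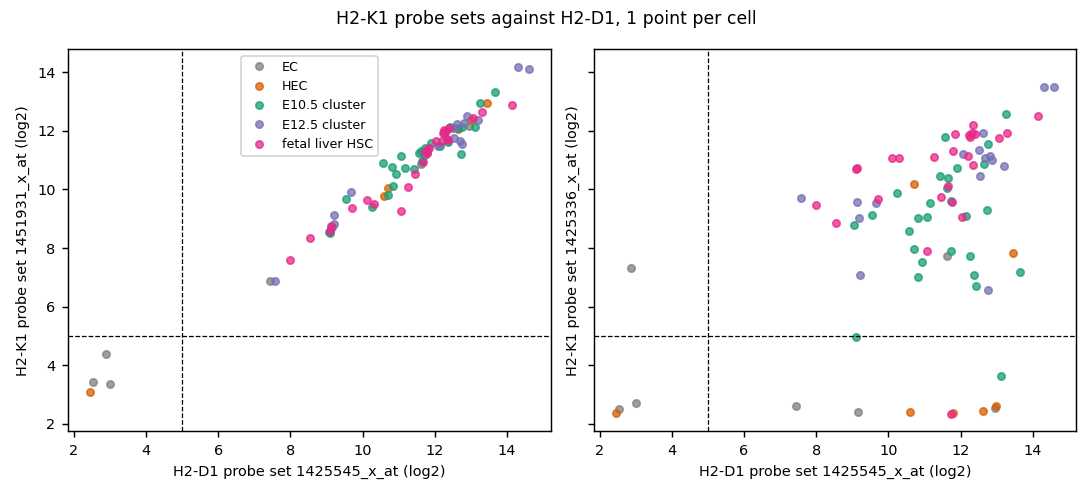
Each point is 1 of 84 cells, coloured by population; the x axis is H2-D1 probe set 1425545_x_at and the y axes are 2 H2-K1 probe sets, all in log2 units, with background at the dashed lines. Probe set 1451931_x_at (left) lies along a line with H2-D1 (r = 0.99), while by 1425336_x_at (right) 4 HEC and 3 EC have H2-D1 and no H2-K1.

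A similar split was seen for H2-D1 itself. The probe set 1426324_at, which lacks the _x suffix, was detected in 1 of 7 EC and 0 of 7 HEC (which allows a share of up to 41.0%, exact 95% interval), and in 13 of 28 cluster cells at E10.5, 10 of 16 at E12.5 and 12 of 26 HSC. By it, H2-D1 was 0.66 lower in HEC than in EC, and 2.28 higher in E10.5 clusters than in HEC. The first of these rests on EC cell 7, at 9.78: without it H2-D1 was 0.35 higher in HEC, still far from the 3.58 of 1425545_x_at. Counted by H2-D1 1425545_x_at and H2-K1 1425336_x_at, H2-D1 without H2-K1 was found in 3 of 7 EC and 4 of 7 HEC, and in 2 of 28 cluster cells at E10.5, 0 of 16 at E12.5 and 1 of 26 HSC. Cells with H2-K1 but not H2-D1 numbered 1, the EC cell 3.

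**Figure D2:**
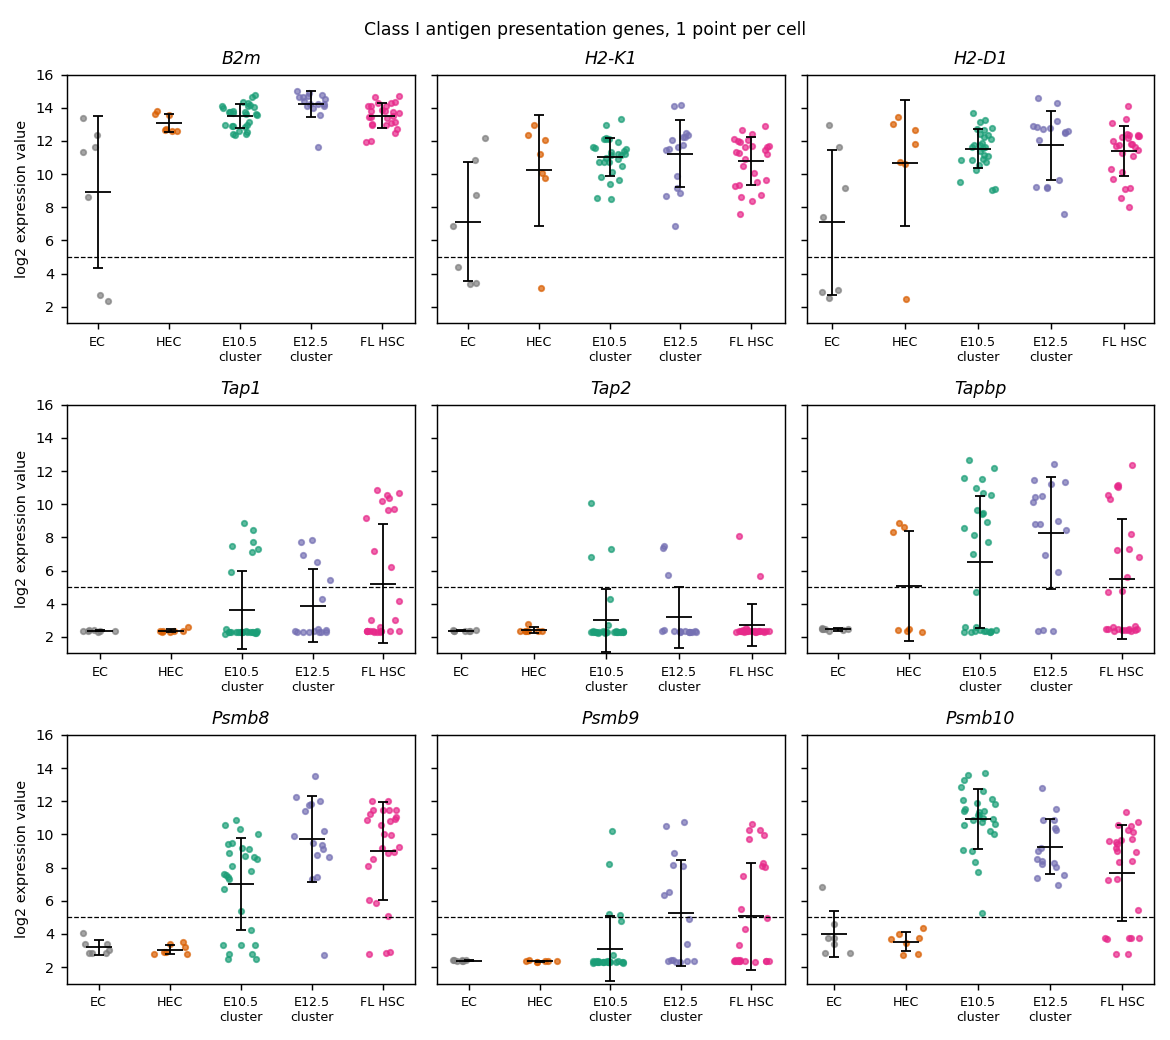
Log2 expression values of the 9 genes in 84 cells by population, 1 point per cell, with the mean and SD over cells (black) and background at log2 5 (dashed). B2m fills all populations but EC; Psmb8 and Psmb10 lie below background in all HEC and above it in most blood cells; Tap1, Tap2 and Psmb9 fall into cells with and cells without signal.

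The transporter genes were seen in few cells and in no endothelial cell. Tap1 was below background in all 7 EC and all 7 HEC, and above it in 7 of 28 cluster cells at E10.5, 5 of 16 at E12.5 and 10 of 26 HSC. The highest Tap1 value was 8.89 in E10.5 clusters, 7.87 in E12.5 clusters and 10.85 in HSC, while the medians of 2.30, 2.38 and 2.80 lay at background. The cells with Tap1 averaged 7.55, 6.89 and 9.46 in these populations. Tap1 was 1.24 higher in E10.5 clusters than in HEC and 1.32 higher in HSC than in E12.5 clusters by the mean, and by the median over cells these differences were -0.033 and 0.42. With only the 61 cells whose array controls both sat at the shared value, the second was 0.45. Tap2, the partner subunit, was detected in 3 cluster cells at E10.5, 3 at E12.5 and 2 HSC, with highest values of 10.08, 7.45 and 8.09. Both subunits were seen in the same cell in 1 cluster cell at E10.5, 1 at E12.5 and no HSC. For genes read by 1 usable probe set each, a cell without signal may hold the transcript below the array's range. Of the 4 Tap1 probe sets 3 were detected in no cell.

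Tapbp, which encodes tapasin, the bridge between the transporter and the empty class I molecule, had a wider hold. It was detected in 0 of 7 EC and 3 of 7 HEC, and in 15 of 28 cluster cells at E10.5, 13 of 16 at E12.5 and 11 of 26 HSC. The 3 HEC with Tapbp lay at 8.35 to 8.86 and the other 4 at 2.32 to 2.46. Mean Tapbp was 2.61 higher in HEC than in EC, 1.46 higher in E10.5 clusters than in HEC and 1.78 higher in E12.5 than in E10.5 clusters, and then 2.78 lower in HSC. Each of these differences was smaller than the larger SD, which lay between 3.33 and 3.96, and the cells of each pair of populations overlapped. Under quantile normalization the step from HEC to E10.5 clusters was 0.43. The second Tapbp probe set, 1450378_at, was detected in 3 of 84 cells, followed the first only at r = 0.26 and gave -0.039, 0.22, 0.25 and -0.45 for the 4 steps. None of Tap1, Tap2 and Tapbp was detected in 7 of 7 EC and 4 of 7 HEC, and in 9 of 28 cluster cells at E10.5, 2 of 16 at E12.5 and 9 of 26 HSC.

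**Figure D3:**
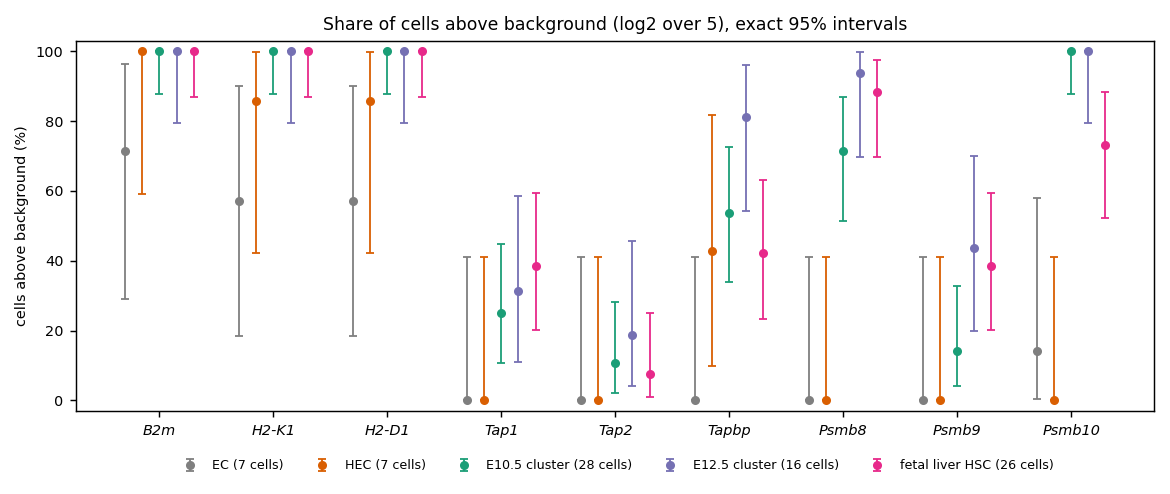
Percentage of cells above background (log2 over 5) for each gene in each population, with exact 95% intervals that cover counting over cells only. B2m, H2-K1 and H2-D1 reach 100% in the 3 blood populations; Psmb8 goes from 0% in HEC to 71.4% in E10.5 clusters and Psmb10 from 0% to 100%, while Tap1 and Psmb9 stay at or below 43.8%.

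Psmb10 separated endothelial from cluster cells more sharply than any other member. In HEC its values ran from 2.75 through a median of 3.72 to 4.36, and all 7 cells were below background. In E10.5 clusters they ran from 5.27 through 11.17 to 13.70, and all 28 were above it. Its difference of 7.40 exceeded the larger SD of 1.82, and among the 9 members it alone had values that did not overlap between these populations. The share of all measured genes without overlap was not counted, so this does not set Psmb10 apart from genes in general. One EC, cell 3 with the germ-cell genes, held Psmb10 at 6.83, and the other 6 were below background. E12.5 clusters ran from 6.94 through 8.73 to 12.80, all above background, and HSC from 2.78 through 8.98 to 11.34, with 19 of 26 above background. Mean Psmb10 was 1.67 lower in E12.5 than in E10.5 clusters, 1.58 lower in HSC than in E12.5 clusters, and 3.26 lower in HSC than in E10.5 clusters. The last is beyond the larger SD of 2.89. By the median over cells HSC were 0.25 higher than E12.5 clusters. HSC cells 5 and 7, which had endothelial and no blood genes, were among the cells without Psmb10, at 3.74 and 3.73, and without the 6 cells that stood apart the HSC minus E12.5 difference was -1.11. Under quantile normalization it was -0.46.

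Psmb8 had the same onset and another course. It was below background in all EC (2.83 to 4.03) and all HEC (2.77 to 3.50). It was detected in 20 of 28 cluster cells at E10.5, which ran from 2.46 through a median of 7.71 to 10.85, in 15 of 16 cluster cells at E12.5, from 2.73 through 9.70 to 13.51, and in 23 of 26 HSC, from 2.79 through 10.00 to 12.04. Its mean was 3.95 higher in E10.5 clusters than in HEC, beyond the larger SD of 2.79, and 1.78 higher under quantile normalization. It was a further 2.72 higher in E12.5 clusters, and 1.98 higher in HSC than in E10.5 clusters, each within the larger SD (2.79 and 2.94). Thus between E10.5 clusters and HSC, Psmb8 and Psmb10 differed in opposite directions. The second Psmb8 probe set, 1444619_x_at, was at background in all E10.5 clusters and above it in 5 of 16 cluster cells at E12.5 and 12 of 26 HSC.

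Psmb9 was detected in the fewest cells of the 3 subunits. It was below background in all EC and HEC, and above it in 4 of 28 cluster cells at E10.5, 7 of 16 at E12.5 and 10 of 26 HSC. Its medians were 2.33, 4.13 and 2.88 in these populations, all below background, and its highest values were 10.22, 10.75 and 10.65. The mean was 2.13 higher in E12.5 than in E10.5 clusters, within the larger SD of 3.18. Among the E12.5 cells with macrophage genes, cells 3 and 6 had Psmb9 at 10.75 and 10.50 and cell 10 had 2.38. Without the cells that stood apart, the E12.5 minus E10.5 difference was 1.53. Whether macrophage transcripts account for part of it was not tested.

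Cell by cell, the immunoproteasome set was seldom complete. At least 1 of Psmb8, Psmb9 and Psmb10 was detected in 1 of 14 endothelial cells and in 28 of 28 cluster cells at E10.5, 16 of 16 at E12.5 and 25 of 26 HSC. All 3 were detected in 0 of 14 endothelial cells, which allows a share of up to 23.2%, and in 4 E10.5 cluster cells (14.3%, exact 95% interval 4.03 to 32.7), 7 E12.5 cluster cells (43.8%, 19.8 to 70.1) and 7 HSC (26.9%, 11.6 to 47.8). Psmb10 without Psmb8 was found in 8 cluster cells at E10.5, 1 at E12.5 and 1 HSC. Psmb8 without Psmb10 was found in 0 cluster cells at E10.5, 0 at E12.5 and 5 HSC. Since all E10.5 and E12.5 cluster cells had Psmb10, the counts of 0 follow from that.

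The standard catalytic subunits were lower in the later populations, as Psmb10 was and Psmb8 and Psmb9 were not. Psmb5, Psmb6 and Psmb7 were detected in all EC, HEC and E10.5 clusters. They were 2.13, 2.33 and 1.22 higher in HEC than in EC, where Psmb8, Psmb9 and Psmb10 differed by -0.14, -0.033 and -0.46. Under quantile normalization the HEC minus EC differences of Psmb5, Psmb6 and Psmb7 were 0.63, 1.06 and -0.030. Those of Psmb8, Psmb9 and Psmb10 were -1.51, -0.0088 and -1.79. Of the standard subunits only Psmb6 then reached 1 log2 unit. Between E10.5 clusters and HEC, Psmb5, Psmb6 and Psmb7 differed by 0.34, -0.081 and 0.83. Between E12.5 and E10.5 clusters they differed by -1.25, -1.15 and -2.28, and in HSC the differences from E10.5 clusters were -2.60, -2.55 and -3.54. Psmb8, Psmb9 and Psmb10 differed there by 1.98, 1.95 and -3.26. Of all measured genes 55.5% were lower in HSC than in E10.5 clusters, so the standard subunits and Psmb10 went with the majority and Psmb8 and Psmb9 did not. When arrays were quantile-normalized, the HSC minus E10.5 differences were -1.18, -1.19 and -2.33 for Psmb5, Psmb6 and Psmb7, and 4.04, 2.51 and -1.48 for Psmb8, Psmb9 and Psmb10, with every direction kept.

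**Figure D4:**
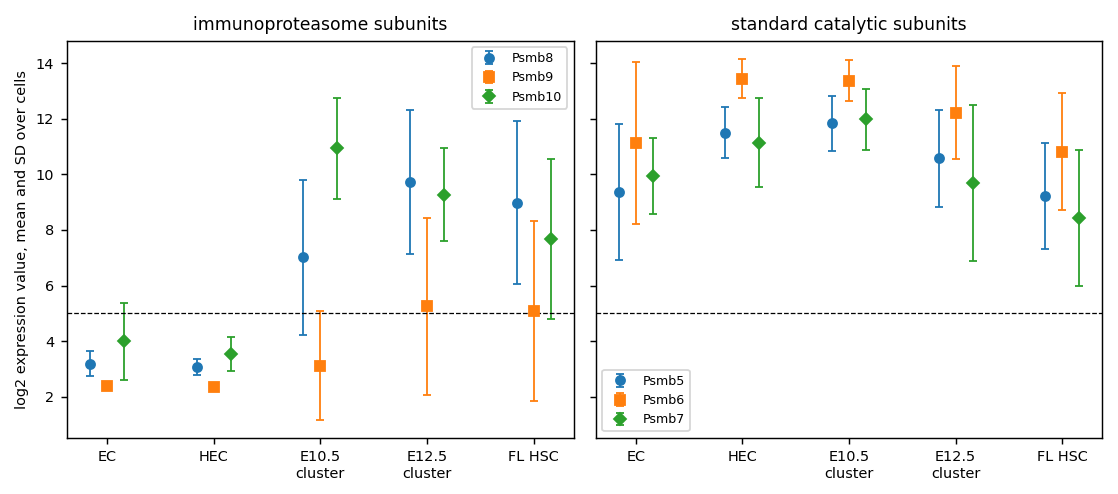
Mean and SD over cells of the log2 expression value for the immunoproteasome subunits (left) and the standard catalytic subunits (right) in the 5 populations; the dashed line is background. Psmb8 and Psmb9 are 1.98 and 1.95 higher in HSC than in E10.5 clusters, while Psmb10 and all 3 standard subunits are lower; only changes within a gene, and not heights between genes, can be read.

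Psme1, a subunit of the proteasome activator that interferon induces, was detected in 3 of 7 EC, 6 of 7 HEC and all 70 cells of the blood populations. It was 2.93 higher in HEC than in EC, 2.81 higher in E10.5 clusters than in HEC, and then differed by 0.048 and -0.85. Psme3, which encodes another, nuclear activator, was 3.92 higher in E10.5 clusters than in HEC and differed by -4.14 between HSC and E10.5 clusters. Pomp, a proteasome assembly chaperone, was 2.55 higher in HEC than in EC and differed by -3.06 between HSC and E10.5 clusters. Of these 3 measured genes, 2 were higher in HEC than in EC (45.9% of all measured genes), 2 were higher in E10.5 clusters than in HEC (43.1%), and 2 were lower in HSC than in E10.5 clusters (55.5%), shares not far from those of all genes. Under quantile normalization the HSC minus E10.5 differences of Psme3 and Pomp were -1.87 and -1.50.

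The general chaperones of peptide loading were lower in HSC than in E10.5 clusters, as were 55.5% of all measured genes. Calr (calreticulin), Canx (calnexin) and Pdia3 (the disulphide isomerase of the loading complex) differed by -4.43, -2.15 and -3.63 between HSC and E10.5 clusters, against 0.020 for B2m and -0.15 for H2-D1. Under quantile normalization these were -2.90, -0.73 and -2.01, and 1.42 and 1.44, so that Canx no longer reached 1 log2 unit. Of the 5 loading partners 3 were higher in HEC than in EC, beside 45.9% of all measured genes. None reached 1 log2 unit either way between E10.5 clusters and HEC, where 43.1% of all measured genes were higher and 15.7% lower. In HSC 3 were lower than in E10.5 clusters, beside 55.5%. Erap1, which trims peptides, was detected in 14 of 28 cluster cells at E10.5, and Tapbpl, a tapasin relative, in at most 4 cells of any population.

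By comparison, the 9 members were set beside all measured genes. From EC to HEC 4 of 9 were higher (B2m, H2-K1, H2-D1 and Tapbp) and none lower, while 45.9% of all measured genes were higher and 7.36% lower; the median difference was 0.030 over the 9 and 0.82 over all. The share of the members was near that of all genes. This background moved with scaling: with arrays shifted to an equal median signal 26.6% of genes were higher and 31.0% lower, and under quantile normalization 25.4% and 21.7%. From HEC to E10.5 clusters 4 of 9 were higher (Tap1, Tapbp, Psmb8 and Psmb10) and none lower, against 43.1% higher and 15.7% lower, with medians of 0.87 and 0.71. Without HEC cell 1, 3, 5 or 7, 6 of 9 were higher. The shifted arrays gave 56.0% and 11.5% of genes, and quantile normalization 27.9% and 22.8%.

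From E10.5 to E12.5 clusters 3 of 9 were higher (Tapbp, Psmb8 and Psmb9) and 1 was lower (Psmb10), where 5.47% of all genes were higher and 39.9% lower; the medians were 0.28 over the 9 and -0.66 over all. Under quantile normalization 15.1% of genes were higher and 18.9% lower. From E12.5 clusters to HSC 1 of 9 was higher (Tap1) and 2 were lower (Tapbp and Psmb10), where 7.91% of genes were higher and 36.9% lower (17.3% and 19.2% under quantile normalization), and the medians were -0.47 and -0.53. Between HSC and E10.5 clusters 3 of 9 were higher (Tap1, Psmb8 and Psmb9) and 2 were lower (Tapbp and Psmb10), where 5.01% of genes were higher and 55.5% lower, with medians of -0.15 and -1.29. Tapbp, at -1.005, stood at the limit. Under quantile normalization 20.4% of genes were higher and 25.8% lower in that comparison, and 6 of the 9 members were higher: B2m, H2-K1 and H2-D1 then differed by 1.42, 1.31 and 1.44. Comparisons of neighbouring populations share cells and are not independent of each other.

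**Figure D5:**
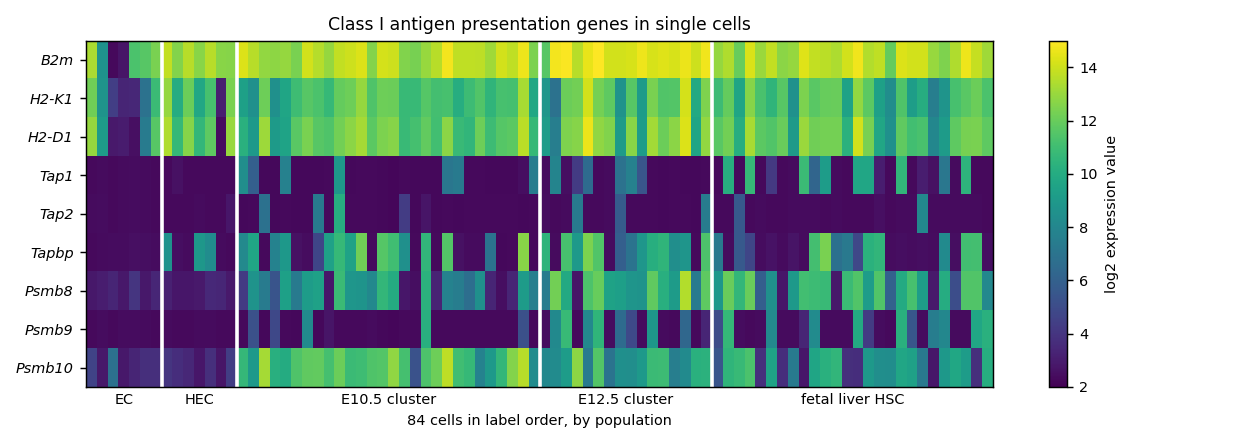
Log2 expression values (colour) of the 9 genes in 84 cells, 1 column per cell in label order within each population. B2m and the heavy chains form an unbroken band from HEC on apart from 1 HEC, Psmb10 and Psmb8 begin with E10.5 clusters, and Tap1, Tap2 and Psmb9 are scattered.

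The number of members detected in a cell ran from 0 to 3 in EC (median 3), 1 to 4 in HEC (median 3), 4 to 8 in E10.5 clusters (median 6), 5 to 9 in E12.5 clusters (median 7) and 3 to 8 in HSC (median 6). One cell, an E12.5 cluster cell, had all 9. The EC with none was cell 4. The HSC with 3 was cell 7, which had endothelial and no blood genes. The mean log2 value over the 9 genes was 4.43 ± 1.25 (SD, 7 cells) in EC, 5.86 ± 1.04 in HEC, 7.81 ± 1.08 in E10.5 clusters, 8.53 ± 1.10 in E12.5 clusters and 7.87 ± 1.30 in HSC. Within populations, this mean correlated with the number of probe sets above background at r = 0.22 over the 84 cells. Both were first centred on their population means. The median r over all measured genes, centred likewise, was 0.21. Centring removes the differences between populations, so these values do not show how far the number of probe sets goes with them.

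Members were compared within populations as a description, over cells that share a sort and an array protocol. H2-K1 1451931_x_at and H2-D1 correlated at r = 0.95 over the 28 E10.5 cluster cells, 0.99 over the 16 E12.5 cluster cells and 0.97 over the 26 HSC. B2m and H2-D1 correlated at 0.44, 0.29 and 0.63. Tap1 went with B2m, H2-D1 and Psmb8 in HSC at 0.53, 0.54 and 0.53, and with H2-D1 at -0.33 and -0.35 in E10.5 and E12.5 clusters. Tap1 and Psmb9 correlated at 0.23 in HSC.

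Tap1 and Psmb9 were of interest as a pair because they are neighbours and point away from each other. In the order Psmb9, Tap1, Psmb8, Tap2 these 4 genes lie side by side, and the 225 bases between the RefSeq starts of Psmb9 and Tap1, chr17:34187331-34187555 in GRCm38.p6, are the upstream sequence of both. They are shown on the plus strand, in the direction of Tap1, with capitals for the same motifs.
Tap1 and Psmb9: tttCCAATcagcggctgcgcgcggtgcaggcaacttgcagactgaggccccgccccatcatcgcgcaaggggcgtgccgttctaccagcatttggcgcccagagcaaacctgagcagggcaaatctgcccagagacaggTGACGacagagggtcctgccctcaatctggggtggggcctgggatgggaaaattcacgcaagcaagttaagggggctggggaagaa
This stretch has 1 CCAAT and 1 TGACG and no match to the kappaB consensus or to either interferon-response motif as spelled above. Both were detected in 1 cluster cell at E10.5, 3 at E12.5 and 5 HSC. Tap1 without Psmb9 was found in 6, 2 and 5 cells of these populations, and Psmb9 without Tap1 in 3, 4 and 5. Of the cells with Tap1, 6 of 7 cluster cells at E10.5, 5 of 5 at E12.5 and 10 of 10 HSC also had Psmb8. Among all cells of these populations Psmb8 was detected in 20 of 28, 15 of 16 and 23 of 26.

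Among the regulators of class I genes, Nlrc5, the class I transactivator, was seen in HSC alone. It was detected in 0 of 7 EC and 0 of 7 HEC, and in 0 of 28 cluster cells at E10.5, 0 of 16 at E12.5 and 7 of 26 HSC (26.9%, exact 95% interval 11.6 to 47.8), and its mean was 2.22 higher in HSC than in E12.5 clusters. A count of 0 of 28 allows a share of up to 12.3%. All 7 HSC with Nlrc5 had Psmb8, 6 had Tap1 and 3 had Psmb9. Over all 26 HSC, Psmb8, Tap1 and Psmb9 were detected in 23, 10 and 10 cells. Irf1, an interferon-induced activator of these genes, was detected in 2 of 7 EC and 1 of 7 HEC, and in 14 of 28 cluster cells at E10.5, 13 of 16 at E12.5 and 17 of 26 HSC. It was 2.98 higher in E12.5 than in E10.5 clusters and 1.55 lower in HSC than in E12.5 clusters. Under quantile normalization these differences were 3.56 and -0.20, so that the second no longer reached 1 log2 unit. Rfx5, the DNA-binding partner of Nlrc5, was detected in 8 of 28 cluster cells at E10.5, 9 of 16 at E12.5 and 12 of 26 HSC. Rela, a subunit of NF-kappaB, was detected in 2 EC, 5 HEC and 25, 15 and 21 cells of the blood populations. Of 13 measured regulators 9 were higher and 1 lower in E10.5 clusters than in HEC, beside 43.1% and 15.7% of all measured genes. In HSC 4 were higher and 3 lower than in E10.5 clusters, beside 5.01% and 55.5%.

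Ifngr1, the ligand-binding chain of the interferon-gamma receptor, was 4.44 higher in HEC than in EC, detected in 7 of 7 against 2 of 7 cells, and was detected in all 28 E10.5 cluster cells. Of 7 measured genes of interferon receptors and signalling 6 were higher in HEC than in EC and none lower, beside 45.9% and 7.36% of all measured genes. With arrays shifted to an equal median signal the shares of all genes were 26.6% and 31.0%, and Ifngr1 was 3.46 higher. The count over the 7 genes was not repeated under that scaling and may be smaller. Socs3, a feedback inhibitor of cytokine signalling, was detected in 4 of 7 HEC, 5 of 28 cluster cells at E10.5 and at most 1 cell of every other population. Ifngr2, the other chain of the interferon-gamma receptor, was detected in 0 of 7 HEC and in 1 cluster cell at E10.5 and 1 HSC, too few to count as measured.

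Other presenting molecules were sparse. Of 24 other class I and class I-like genes 12 had a probe set of their own and 4 were measured. Cd1d1, which presents lipids, was detected in 0 EC, 1 HEC, 15 of 28 cluster cells at E10.5, 9 of 16 at E12.5 and 16 of 26 HSC, and was 2.51 higher in E10.5 clusters than in HEC. H2-M3, whose promoter has the spaced motif pair described above, was detected in 0, 1, 2, 3 and 8 cells of the 5 populations in order, and was 1.72 higher in HSC than in E10.5 clusters. Of MHC class II genes 3 of 8 were measured. Cd74, the invariant chain, was detected in 1 of 84 cells, and H2-Oa, a class II chaperone chain, in 8 of 16 cluster cells at E12.5 and at most 2 cells of any other population.

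The genes whose cell-to-cell variation within populations was most like that of the 9 members were sought over all measured genes outside the lists. Over 84 cells, each gene first centred on its population means, the highest correlations with the mean of the 9 were those of Dbnl (r = 0.55), Clic1 (0.51), Emp3 (0.49), Gabpb2 (0.47), Lst1 (0.47), Laptm5 (0.47), Pgrmc1 (0.47), Ndufv3 (0.46), Rac2 (0.44) and Wrnip1 (0.44). They were the top of 10694 correlations and have no test. Rac2 was detected in 0 of 14 endothelial cells, 27 of 28 cluster cells at E10.5, 16 of 16 at E12.5 and 24 of 26 HSC. Lst1 was detected in 0 EC, 1 HEC, 24 cluster cells at E10.5, 15 at E12.5 and 21 HSC.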

How the data were processed

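Each of 85 sorted cells was hybridised to 1 Affymetrix array with 45101 probe sets. The authors deposited log2 expression values made with GCRMA and affy, per the submitters' processing notes (no version is given in the sources used here). The GCRMA background is modelled on probe sequence, so absent transcripts sit near the lower bound (2.19), and probes that match related genes are kept. The main results use the deposited values, and arrays were normalized again only for the alternatives.

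Genes were named from the platform annotation: 34958 probe sets had 1 symbol, 932 several and 9211 none; 64 control probe sets were left out. Each gene was read by 1 probe set, the one whose mean of the 5 population means was highest. The number of arrays limits precision; shares have exact Clopper-Pearson 95% intervals, covering counting over cells only. The members, lists, thresholds and alternatives were chosen with earlier results of these data known. Named genes were the 9 members, members of the lists, and the 10 genes outside them that correlated best with the mean of the 9. The alternatives were array scaling, probe set choice, median for mean, and leaving cells out. Python 3.11.15, pandas 2.3.3 and numpy 2.4.6 were used. In a simulated check both populations of a comparison were drawn from 1 pool of cells. A shift of 2 log2 units was recovered with medians of 1.91 to 2.05. Of genes not shifted, 41.8% still reached 1 log2 unit either way for HEC minus EC and 32.3% for E10.5 cluster minus HEC. E12.5 minus E10.5 cluster, HSC minus E12.5 cluster and HSC minus E10.5 cluster gave 20.4%, 23.4% and 17.1%. A call of higher or lower can thus arise without a difference.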

Additional observations from a re-analysis of the deposited data

Results flagged for a closer look

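Among 24 sets of values examined in populations of 7 cells, 5 held a cell set off from the other 6 by most of the range. Chance gives about 1 in 20 where sets are independent. These were not, since H2-K1 1451931_x_at and H2-D1 followed each other at r = 0.99, so the 5 do not measure an excess over chance. HEC cell 6 accounted for 2 of them: its H2-D1 was 2.45, with the next HEC at 10.59, and its H2-K1 by probe set 1451931_x_at was 3.10, with the next at 9.79. That cell had 7895 probe sets above background, within the range of 6670 to 9065 over HEC, and B2m at 12.70. EC cell 7 was the highest for H2-D1 probe set 1426324_at, at 9.78 against 3.25 for the next EC. The remaining cases lie below background: Tap1 in HEC cell 2 at 2.59 against 2.35, and Tap2 in HEC cell 7 at 2.79 against 2.37.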

How the results depend on the processing

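Of 365 differences of a member under the alternatives other than leaving out 1 cell, 349 stayed within 1 larger SD of the reported value without a called value changing sign. Among values of at least 1 log2 unit, those that changed sign were H2-D1 HEC minus EC, -0.66 with probe sets without the _x suffix; Tap1 E10.5 cluster minus HEC, -0.033, and Psmb10 HSC minus E12.5 cluster, 0.25, by the median over cells; and Tapbp HSC minus E10.5 cluster, 0.33 under quantile normalization. Among smaller values, quantile normalization turned HSC minus E12.5 cluster to 0.52, 0.53 and 0.72 for B2m, H2-K1 and H2-D1. Among counts of the 9 genes, arrays shifted to an equal median signal gave 3 lower for HEC minus EC, 8 higher for E10.5 cluster minus HEC and 1 lower for HSC minus E10.5 cluster. Quantile normalization gave 2 lower, 2 higher and 1 lower for these, 1 lower for HSC minus E12.5 cluster, and 6 higher with a median of 1.42 for HSC minus E10.5 cluster. The mean of all probe sets of a gene gave 2 higher for HEC minus EC, 0 higher for HSC minus E12.5 cluster and 1 lower for HSC minus E10.5 cluster. The median over cells gave 0 higher for HSC minus E12.5 cluster and 1 higher for HSC minus E10.5 cluster. The 61 cells with both array controls at the shared value gave 0 higher for HSC minus E12.5 cluster and 1 lower for HSC minus E10.5 cluster, and leaving out the 6 cells that stood apart also gave 1 lower there. The cause was not tested. Leaving out each EC or HEC in turn changed 4 of 42 counts, each of them E10.5 cluster minus HEC higher, from 4 to 6. The shares of all genes that were higher or lower rest on measured genes only. Without that filter on low values they moved beyond a set limit in 5 of 5 comparisons, for higher and for lower alike. H2-K1 read by its probe set with the second highest mean, 1425336_x_at, and leaving out cells for H2-D1 1426324_at were alternatives chosen after seeing the data. No paired analysis was possible because no test was made and the cell numbers in the labels name cells only.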
